A study of Mus musculus with 18 samples.

Results

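The 4 Id genes, Id1, Id2, Id3 and Id4, were followed in mouse embryonic fibroblasts that received TGF-β1. Every probe set whose only symbol in the array annotation was one of these names was taken, which gave 8 of the 45101 probe sets and 4 of the 18194 genes on the array. Id1 and Id3 had 1 probe set each and Id2 and Id4 had 3 each. Each gene is led by its brightest probe set by the mean over the 18 arrays, and the dimmer ones are reported beside it. All 4 genes and all 8 probe sets passed the filter on low values, although the dimmest Id2 probe set was above it on only 12 of the 18 arrays.

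The cells were primary fibroblasts, grown from 14-day embryos without head and liver, of 3 wild-type embryos and of 3 whose label is NFI-C knock-out, that is, without the transcription factor nuclear factor I-C, which Nfic encodes. Cultures of each embryo stood for some hours in medium with an albumin substitute and an insulin, transferrin and selenium mix. TGF-β1 at 12.5 ng/ml then followed for 1 h, to catch the immediate response, or for 10 h, to catch the delayed one, and another culture got none. The 6 groups are therefore untreated wild type, untreated knock-out, and each genotype at 1 h and at 10 h, with 3 arrays per group, 1 for each embryo. A 10 h change covers time in culture as well as TGF-β1, since the untreated cells were not matched to 10 h here. Neither the deleted stretch of Nfic nor the mouse strain is in the labels.

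Id proteins are small helix-loop-helix proteins that lack the basic stretch with which their relatives hold DNA. They pair with the E proteins, the widely expressed partners of basic helix-loop-helix factors, and keep them from binding E boxes, so that tissue-specific factors such as MyoD lose their partner. The Id genes are known as direct targets of bone morphogenetic proteins (BMPs) through SMAD1 and SMAD5. TGF-β signals mainly through SMAD2 and SMAD3 but can also reach SMAD1 and SMAD5, and in several cell types it is known to raise Id genes briefly and then to lower them.

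Values are log2 expression from RMA, which corrects for background, brings the arrays to 1 distribution and combines each set's probes. Array medians lay between 4.74 and 4.81. For the median gene the 95% interval of a difference between 2 groups reached 0.27 to each side, and the number of arrays limits this precision. Nfic mRNA showed no measurable loss in the labelled knock-outs, with 10.45 ± 0.08 (SD, n = 3) in untreated wild type and 10.35 ± 0.42 in untreated labelled knock-out, a difference of -0.10 ± 0.16 (SE, limma adjusted p = 1.00). The position of its probes relative to the deletion was not examined here, so the genotype is given as labelled. Of 10 fibroblast markers all passed the filter, with list means per array between 11.23 and 12.04. Of 7 endothelial markers 4 did not pass it, among them Pecam1 and Cdh5, while Kdr, Emcn and Esam did. On the array, 5 of 7 epithelial, 6 of 7 neural and neural crest and 3 of 6 skeletal muscle markers passed. The list means per array of these 3 lay between 4.43 and 6.14, and Nes, a neural marker, had a median of 8.83. All 8 macrophage and haematopoietic markers passed, and their list means per array ran from 8.18 to 10.60.

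Within a genotype the labels give the same number to arrays of the same embryo, and the arrays were compared with that. Deviations from the group means over all tested genes correlated between the untreated and the 1 h array of an embryo at 0.604 to 0.763 in wild type and at 0.592 to 0.684 in the labelled knock-outs. Between the untreated and the 10 h array the correlation was 0.487 in wild-type embryo 1 and 0.282 to 0.388 in the labelled knock-outs. The wild-type 10 h arrays of embryos 2 and 3 went against this, at -0.064 and -0.204. Their changes per embryo at 10 h are given as labelled, and calls that were lost without these arrays, with the Id2 and Id3 levels at 10 h, are also given without them.

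Promoter sequence is shown for the members with an entry in RefSeq's table (build GRCm38.p6), 3 of the 4, because the members were measured after a ligand whose SMADs act at promoters and in cells that differ by label in a nuclear factor I gene. The stretch of 250 bases before the annotated start was searched on both strands for GGCGCC, a GC-rich SMAD motif of BMP targets, for CAGAC, a SMAD motif, and for TTGGC, the nuclear factor I half-site, which are in capitals in whichever strand they were found. Id2 lies on the minus strand at chr12:25096093-25096342, Id3 on the plus strand at chr4:136143572-136143821 and Id4 on the plus strand at chr13:48260866-48261115. Each is printed 5′ to 3′ towards the start of the gene.
Id2: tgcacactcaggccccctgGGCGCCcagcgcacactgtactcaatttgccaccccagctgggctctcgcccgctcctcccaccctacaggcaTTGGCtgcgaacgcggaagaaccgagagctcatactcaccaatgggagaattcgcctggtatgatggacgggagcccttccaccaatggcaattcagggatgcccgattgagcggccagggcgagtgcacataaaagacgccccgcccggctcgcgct
Id3: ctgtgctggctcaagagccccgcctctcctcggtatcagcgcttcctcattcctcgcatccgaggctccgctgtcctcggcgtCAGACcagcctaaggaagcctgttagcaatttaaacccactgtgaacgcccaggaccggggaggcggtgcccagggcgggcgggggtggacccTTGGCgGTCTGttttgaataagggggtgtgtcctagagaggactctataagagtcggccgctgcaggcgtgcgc
Id4: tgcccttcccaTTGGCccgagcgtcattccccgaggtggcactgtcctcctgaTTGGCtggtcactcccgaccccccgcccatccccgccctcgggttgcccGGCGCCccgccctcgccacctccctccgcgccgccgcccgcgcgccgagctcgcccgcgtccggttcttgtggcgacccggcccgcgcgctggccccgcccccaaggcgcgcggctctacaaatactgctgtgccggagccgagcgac

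The stretches of Id2 and Id4 held 1 GGCGCC each, and that of Id3 held none. That motif was present in 9.59% of the 32851 promoters of the same length in the table. CAGAC was found only in Id3 among the 3 stretches, in 2 copies, at bases 167 to 163 and, as GTCTG on the printed strand, at bases 68 to 64 before the start. TTGGC was found in all 3, with 1 copy in Id2, 1 in Id3 and 2 in Id4. CAGAC was present in 42.2% and TTGGC in 41.5% of all promoters, so either is common in any stretch of this length. Promoters with 2 or more copies made up 11.7% for CAGAC and 11.5% for TTGGC. The TTGGC of Id2 and both of Id4 follow an A and so lie in ATTGG, the CCAAT box read from the other strand. The E box CANNTG, to which E proteins bind, was found in Id2 alone, 1 copy as CAGCTG, against 66.2% of all promoters. TGACG, the half-site of ATF and CREB factors, was found in Id3 and Id4, 1 copy each, against 17.8%, and that of Id3 overlaps a CAGAC. The GC box GGGCGG was present in all 3, with 1, 2 and 5 copies, and the 2 copies of Id3 overlap each other. Of all promoters 32.7% held at least 1 copy and 16.7% held 2 or more. The stretches were richer in G and C, at 62.8%, 62.8% and 75.6%, than the median promoter at 52.4%.

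After 1 h of TGF-β1 every Id gene was higher than in the untreated culture of the same embryo in all 6 embryos, a pattern shown by 5.2% of the 13679 tested genes. For all 4 genes and in both genotypes the 3 values at 1 h also lay above the 3 untreated values, which held for 7.68% of tested genes in wild type and 3.87% in the labelled knock-outs. A gene passed the test at a limma adjusted p under 0.05 over all tested genes. Id1 rose in both genotypes, Id2 in wild type and Id4 in the labelled knock-outs, so 2 of 4 genes passed in each, where 0.504% of tested genes passed upwards in wild type and 0.417% in the labelled knock-outs. With the embryo as a block, the pairing that the labels give, all 4 passed in both genotypes, beside 0.694% and 0.614% of tested genes. That fit holds the wild-type 10 h arrays of embryos 2 and 3, which went against the pairing. All 4 also passed in both genotypes with the block on untreated and 1 h arrays only. Among all tested genes the 1 h changes of Id1, Id2, Id3 and Id4 took places 4, 10, 31 and 33 from the top in wild type and places 2, 15, 24 and 23 in the labelled knock-outs.

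**Figure D1:**
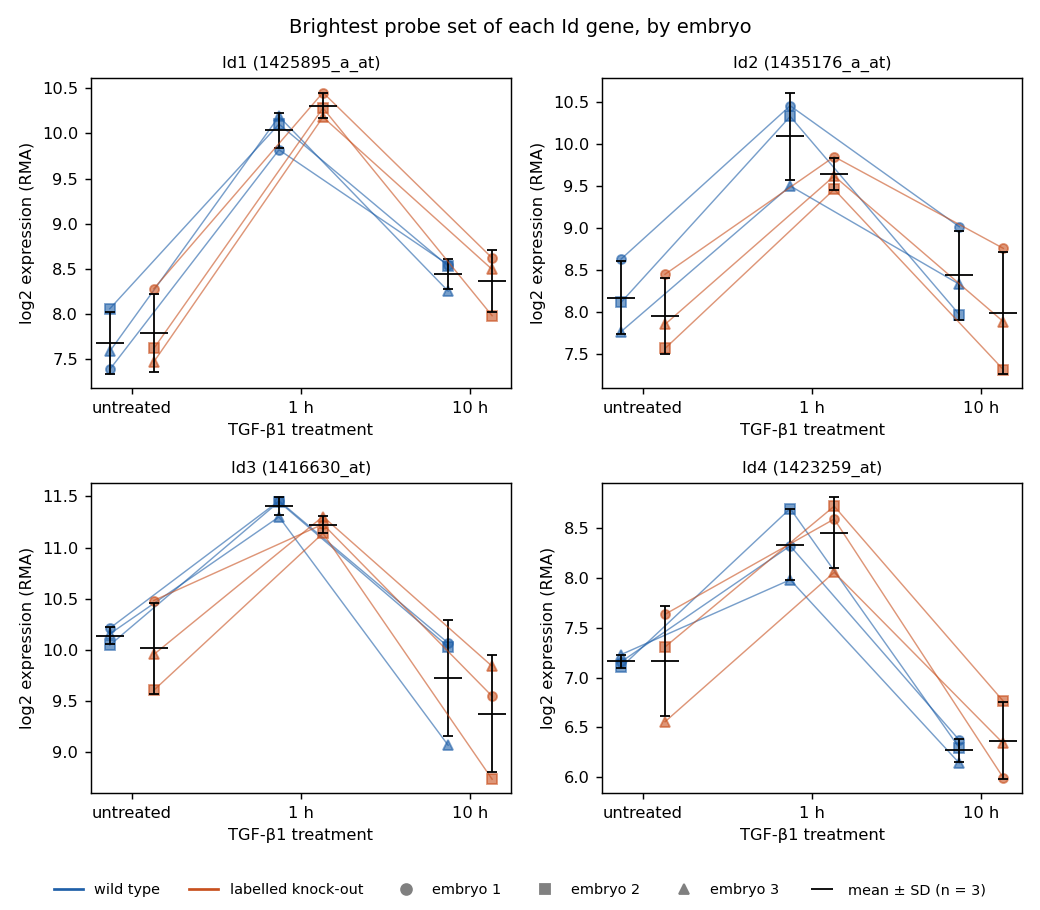
Log2 expression (RMA) of the brightest probe set of each Id gene against TGF-β1 treatment (untreated, 1 h, 10 h), with 1 line per embryo, wild type in blue and labelled knock-out in orange; symbols mark the embryos and black bars the mean ± SD of 3. All 4 genes peaked at 1 h in all 6 embryos, and at 10 h Id1 stood above and Id4 below its untreated level.

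Id1, the member best known as a target of BMP signalling, had the largest rise of the 4 at 1 h in both genotypes. Its untreated values were 7.39, 8.06 and 7.59 in wild-type embryos 1, 2 and 3 and 8.28, 7.62 and 7.47 in labelled knock-out embryos 1, 2 and 3. After 1 h they were 9.82, 10.10 and 10.19 in wild type and 10.45, 10.28 and 10.18 in the labelled knock-outs. All 6 values at 1 h therefore stood more than 1 unit above the highest untreated value. The rise was 2.36 ± 0.22 (SE, n = 3 embryos) in wild type, or 5.12-fold with a 95% interval of 3.73 to 7.03, with a limma adjusted p of 1.14e-05. The labelled knock-outs gave 2.51 ± 0.22, or 5.70-fold with an interval of 4.16 to 7.83 (6.94e-06). Per embryo it ran from 2.04 to 2.71.

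At 10 h Id1 had come down most of the way. It read 8.55, 8.53 and 8.26 in wild type and 8.62, 7.98 and 8.50 in the labelled knock-outs. All 6 embryos kept a level above their untreated one, by 0.34 to 1.16, which is 13.6% to 47.7% of the 1 h rise on the log2 scale. The wild-type groups did not overlap, while labelled knock-out embryo 2 at 10 h stood below labelled knock-out embryo 1 before treatment. The share of tested genes whose untreated and 10 h groups do not overlap is not given here. Against untreated cells Id1 was up by 0.77 ± 0.22 in wild type (limma adjusted p = 0.012) and by 0.58 ± 0.22 in the labelled knock-outs (0.0491). Upward calls were made for 14.9% and 13.9% of tested genes in these comparisons. The wild-type call was lost without wild-type embryo 1 (0.132) or 3 (0.0518) and without the 10 h arrays of embryos 2 and 3 (0.87 ± 0.32, adjusted p = 0.0753). The labelled knock-out call was lost without each embryo left out in turn other than labelled knock-out embryo 1, at adjusted p values from 0.0504 to 0.388, and without labelled knock-out embryo 3 the value was 0.35 ± 0.27.

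Id2, which besides E proteins is known to bind the retinoblastoma protein, started at 8.63, 8.12 and 7.77 in wild type and 8.45, 7.57 and 7.86 in the labelled knock-outs. After 1 h it read 10.46, 10.33 and 9.50 in wild type and 9.85, 9.46 and 9.62 in the labelled knock-outs. Embryo 1 was the highest of its group at every time in both genotypes, and groups at 1 h stayed clear of the untreated ones. In wild type Id2 rose by 1.92 ± 0.36, or 3.80-fold with an interval of 2.22 to 6.49 (limma adjusted p = 0.0178). This call was lost without any 1 of the 3 wild-type embryos (0.0869, 0.306 and 0.107) and without labelled knock-out embryo 3 (0.0726). In the labelled knock-outs it was 1.69 ± 0.36 higher, or 3.22-fold, which did not pass (0.0582). With the embryo as a block the error fell to 0.20 and both passed, at 0.00026 and 0.00113.

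At 10 h Id2 did not differ from untreated cells by the test in either genotype. It read 9.02, 7.97 and 8.33 in wild type and 8.76, 7.32 and 7.89 in the labelled knock-outs, so that the untreated and 10 h groups overlapped in both. It was above its own untreated value in 4 of the 6 embryos and below it in embryo 2 of each genotype. For wild-type embryos 2 and 3 this tally depends on the 10 h arrays that do not go with their embryos' other arrays. The difference from untreated cells was 0.27 ± 0.36 in wild type, with a 95% interval of -0.51 to 1.04, and 0.03 ± 0.36 in the labelled knock-outs, with an interval of -0.74 to 0.80 (limma adjusted p = 0.598 and 0.966). Without the wild-type 10 h arrays of embryos 2 and 3 the wild-type difference was 0.84 ± 0.50 (adjusted p = 0.279), a value in which embryo 1, the highest of each group, stands alone for 10 h. Leaving out 1 wild-type embryo at a time gave 0.12 to 0.47.

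Id3 was measured by 1 probe set, whose mean level lay above that of 95.5% of all probe sets. Its untreated values were 10.21, 10.05 and 10.16 in wild type and 10.48, 9.61 and 9.96 in the labelled knock-outs. After 1 h they were 11.46, 11.45 and 11.30 in wild type and 11.23, 11.14 and 11.30 in the labelled knock-outs. The SD was 0.09 and 0.08 at 1 h, 0.08 in untreated wild type and 0.44 in the untreated labelled knock-outs, the widest of these groups. The difference was 1.26 ± 0.28 in wild type, or 2.40-fold with an interval of 1.59 to 3.61, and 1.21 ± 0.28 in the labelled knock-outs, or 2.31-fold with an interval of 1.54 to 3.48. Neither passed over all genes (limma adjusted p = 0.0554 and 0.0832), and both passed with the embryo as a block (0.0133 and 0.0207).

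At 10 h Id3 was below its untreated level in all 6 embryos, by amounts between 0.02 and 1.09. It read 10.07, 10.03 and 9.07 in wild type and 9.55, 8.74 and 9.84 in the labelled knock-outs. Wild-type embryo 3 and labelled knock-out embryo 2 were the low arrays, and both groups overlapped with their untreated group. The difference was -0.42 ± 0.28 in wild type (limma adjusted p = 0.264) and -0.64 ± 0.28 in the labelled knock-outs (0.0888). With the embryo as a block the labelled knock-out value passed (0.0332), in a fit that called 24.2% of tested genes lower there, and the wild-type value did not (0.149). The wild-type block value rests in part on the 10 h arrays of embryos 2 and 3, which went against the pairing. Without the 10 h arrays of wild-type embryos 2 and 3, the wild-type difference was -0.07.

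Id4, a member known mostly from brain and bone, read 7.16, 7.10 and 7.23 in untreated wild type and 7.64, 7.31 and 6.56 in the untreated labelled knock-outs. After 1 h it read 8.32, 8.70 and 7.98 in wild type and 8.59, 8.72 and 8.06 in the labelled knock-outs. Embryo 3 was the lowest of both 1 h groups, and still above all 6 untreated values. In the labelled knock-outs Id4 rose by 1.29 ± 0.26, or 2.45-fold with an interval of 1.68 to 3.56 (limma adjusted p = 0.0283). That call was lost without any 1 of the 6 embryos, at 0.0561 to 0.304. In wild type Id4 was 1.17 ± 0.26 higher, or 2.25-fold with an interval of 1.54 to 3.28, just short of the threshold (0.0541). With the embryo as a block both passed, at 0.0122 and 0.0187.

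Id4 was the member that ended lowest relative to its start. At 10 h it read 6.37, 6.29 and 6.14 in wild type and 5.99, 6.76 and 6.34 in the labelled knock-outs. All 3 wild-type values were below the 3 untreated ones, though the share of tested genes that separate in this way at 10 h is not given here. In the labelled knock-outs embryo 2 at 10 h stood above embryo 3 before treatment, but each embryo was below its own start, by 0.22 to 1.64. Id4 fell by 0.90 ± 0.26 in wild type (limma adjusted p = 0.013) and by 0.80 ± 0.26 in the labelled knock-outs (0.0226), to 0.537 and 0.574 of the untreated level. Downward calls were made for 18.8% and 20.7% of tested genes. The wild-type call was lost without any 1 wild-type embryo (0.0501 to 0.0923) and without the 10 h arrays of embryos 2 and 3 (-0.79 ± 0.38, adjusted p = 0.177). The labelled knock-out value was -0.38 ± 0.28 without labelled knock-out embryo 1 (0.37).

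**Figure D2:**
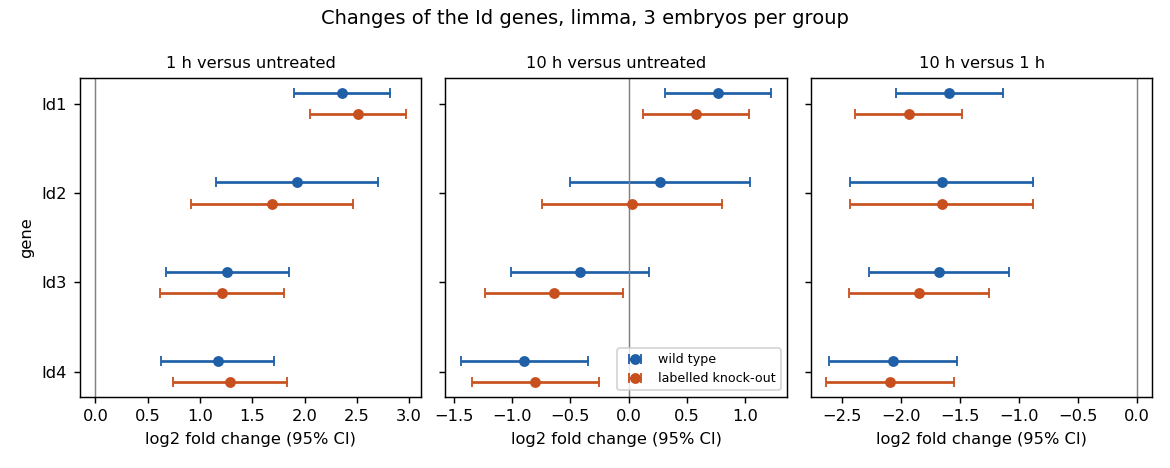
Log2 fold change (points, horizontal axes) and 95% confidence interval (bars) of each Id gene for 1 h against untreated, 10 h against untreated and 10 h against 1 h, from limma with 3 embryos per group, wild type in blue and labelled knock-out in orange. All intervals lie above 0 at 1 h and below 0 between 1 h and 10 h; at 10 h against untreated the values run from 0.77 for Id1 down to -0.90 for Id4.

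From 1 h to 10 h all 4 genes fell in both genotypes and in all 6 embryos, a direction that 24.2% of tested genes shared in all 6. Id1 fell by 1.59 ± 0.22 in wild type and by 1.94 ± 0.22 in the labelled knock-outs, and Id2 fell by 1.66 ± 0.36 in each. Id3 fell by 1.68 ± 0.28 and 1.85 ± 0.28, and Id4 fell by 2.07 ± 0.26 and 2.09 ± 0.26. The limma adjusted p values lay between 1.65e-05 and 0.00244, and 18% and 19.7% of tested genes were called lower in wild type and in the labelled knock-outs. In no gene did the 1 h and 10 h groups of a genotype overlap, as was so for 23.5% and 25.3% of tested genes in this direction. The wild-type fall of Id2 lost its call without wild-type embryo 2 (-1.31 ± 0.46, adjusted p = 0.0589) and without the 10 h arrays of wild-type embryos 2 and 3 (-1.08 ± 0.50, 0.162).

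Within each gene the order of the 6 groups was led by the 1 h groups. For Id1 the means were 10.30 ± 0.14 (SD, n = 3) and 10.04 ± 0.19 at 1 h in labelled knock-out and wild type, then 8.45 ± 0.16 and 8.37 ± 0.34 at 10 h in wild type and labelled knock-out, and last the untreated groups at 7.79 ± 0.43 and 7.68 ± 0.34. For Id4 the order of the times was different, with 8.46 ± 0.35 and 8.33 ± 0.36 at 1 h, 7.17 ± 0.55 and 7.17 ± 0.06 in untreated cells and 6.37 ± 0.39 and 6.27 ± 0.12 at 10 h. Id3 followed the order of Id4, from 11.40 ± 0.09 at 1 h in wild type to 9.38 ± 0.57 at 10 h in the labelled knock-outs, and its untreated and 10 h groups overlapped. For Id2 the 4 groups other than those at 1 h lay between 7.96 and 8.44 with SDs of 0.43 to 0.73, so their order is not resolved. Groups of the same time and different genotype were neighbours in the order of Id1, Id3 and Id4, and in no gene did they differ beyond the test.

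The dimmer probe sets were examined in a fit over 24691 single-symbol probe sets. At 1 h all 8 Id probe sets were higher in all 6 embryos, and none of the 1 h groups overlapped with its untreated group. These 8 measure 4 genes on the same arrays. The shares for these patterns were counted over genes and not over probe sets. Of tested genes 5.2% were higher in all 6 embryos, and 7.68% in wild type and 3.87% in the labelled knock-outs rose without overlap. In that fit 5 of 8 passed upwards in wild type and 4 of 8 in the labelled knock-outs, beside 0.405% and 0.365% of probe sets. The Id2 probe set 1422537_a_at was 1.67 ± 0.40 higher in wild type and 1.60 ± 0.40 in the labelled knock-outs (limma adjusted p = 0.125 and 0.18). The dimmest, 1453596_at, had a mean of 3.97 ± 0.26 (SD, n = 3) in untreated wild type, under the lowest filter value of 4.16, and was 1.11 ± 0.20 (SE) higher at 1 h (0.0172), a value that may understate the change because it starts near background. It was 0.92 ± 0.20 higher in the labelled knock-outs (0.0801). The Id4 probe set 1423260_at rose by 0.77 ± 0.15 and 0.71 ± 0.15 (0.0227 and 0.0477), and 1450928_at rose by 1.46 ± 0.21 and 1.21 ± 0.21 (0.00166 and 0.0114) in wild type and labelled knock-out.

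The same probe sets separated the genes at 10 h. None of the 3 Id2 probe sets passed against untreated cells in either genotype, with differences of 0.03 to 0.42. All 3 Id4 probe sets were lower and passed in both genotypes, 1423260_at by -0.59 ± 0.15 and -0.81 ± 0.15 and 1450928_at by -1.14 ± 0.21 and -1.19 ± 0.21 (limma adjusted p from 0.000471 to 0.00724). With Id1, 1 of 8 probe sets passed upwards in wild type and none in the labelled knock-outs, and 3 of 8 passed downwards in each. The background was 13.1% and 12.9% upwards and 15% and 15.7% downwards. Between 1 h and 10 h all 8 passed downwards in both genotypes, beside 14.4% and 15.3%. The values of the probe sets of a gene correlated over the 18 arrays at 0.943 to 0.975 for Id2 and at 0.949 to 0.957 for Id4, as a description of probe sets that share their arrays.

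**Figure D3:**
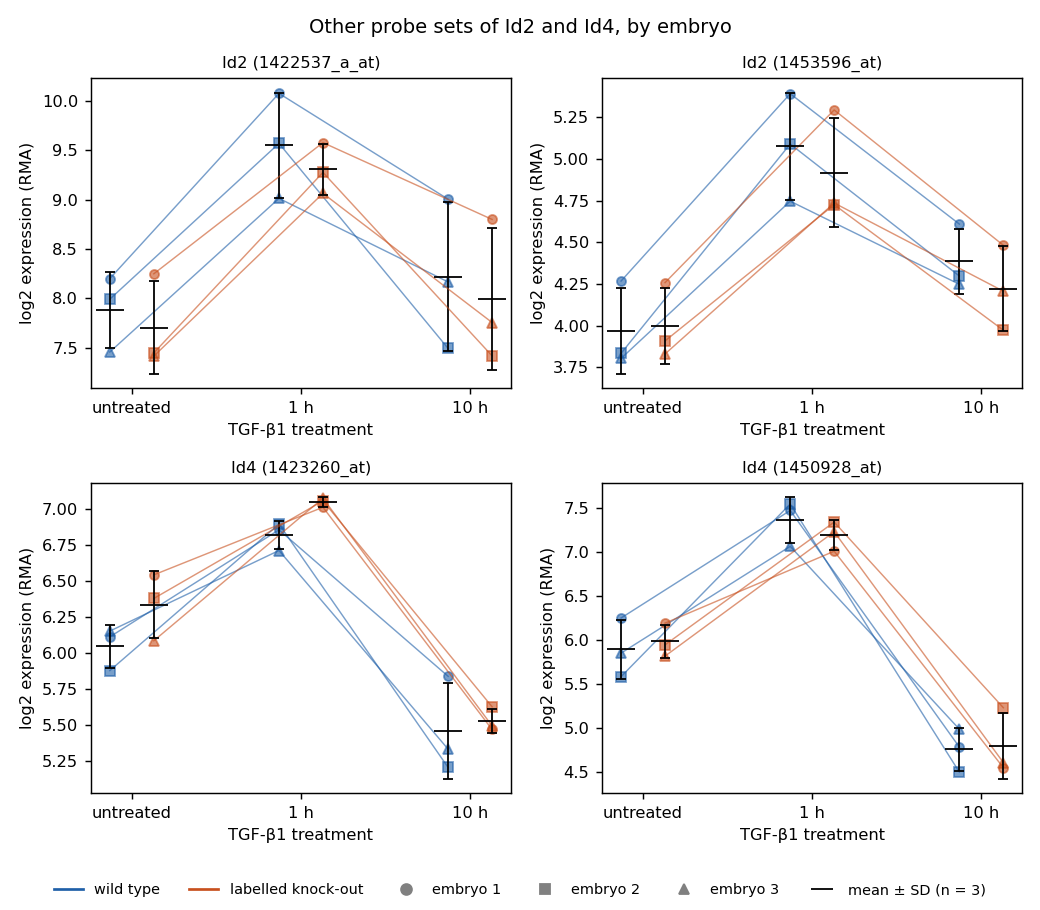
Log2 expression (RMA) of the 2 dimmer probe sets of Id2 and of Id4 against treatment, with 1 line per embryo, colours for the genotypes, symbols for the embryos and black bars for the mean ± SD of 3. Every line rises to 1 h and falls to 10 h, and the Id4 probe sets end below their start in all 6 embryos.

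No genotype difference passed for any Id gene. Between labelled knock-out and wild type 0% of the 13679 tested genes passed in limma before treatment, 0% at 1 h and 0% at 10 h, where 460, 846 and 721 genes had an unadjusted p under 0.05. For Id1 the difference was 0.11 ± 0.22 before treatment, 0.27 ± 0.22 at 1 h and -0.08 ± 0.22 at 10 h. Id2 was lower in the labelled knock-outs at all 3 times, by -0.21 ± 0.36, -0.45 ± 0.36 and -0.45 ± 0.36 (limma adjusted p = 1.00, 0.918 and 0.951), and its groups overlapped at each. Id3 differed by -0.12 ± 0.28, -0.18 ± 0.28 and -0.35 ± 0.28, and Id4 by 0.00 ± 0.26, 0.12 ± 0.26 and 0.10 ± 0.26. Without the wild-type 10 h arrays of embryos 2 and 3 the difference at 10 h was -1.03 ± 0.50 for Id2 and -0.69 ± 0.34 for Id3 (adjusted p = 0.751 and 0.754). The 95% intervals bound the genotype difference at 1 h to between -0.19 and 0.72 for Id1 and between -1.23 and 0.32 for Id2.

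The response itself was also compared between the genotypes. In the 1 h response, the 10 h response and the change from 1 h to 10 h, 0%, 0% and 0% of tested genes differed between the genotypes in limma, with 233, 305 and 367 genes at an unadjusted p under 0.05. The difference in the 1 h response was 0.16 ± 0.30 for Id1, -0.24 ± 0.51 for Id2, -0.05 ± 0.39 for Id3 and 0.12 ± 0.36 for Id4 (adjusted p = 1.00 each). The interval for Id1 ran from -0.49 to 0.80 and that for Id2 from -1.33 to 0.85, and differences within these intervals were not resolved with 3 embryos per group. In the 10 h response the difference was -0.24 ± 0.51 for Id2 and -0.22 ± 0.39 for Id3, and -0.81 ± 0.61 and -0.57 ± 0.41 without those 2 arrays (limma adjusted p from 0.999 to 1.00).

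**Figure D4:**
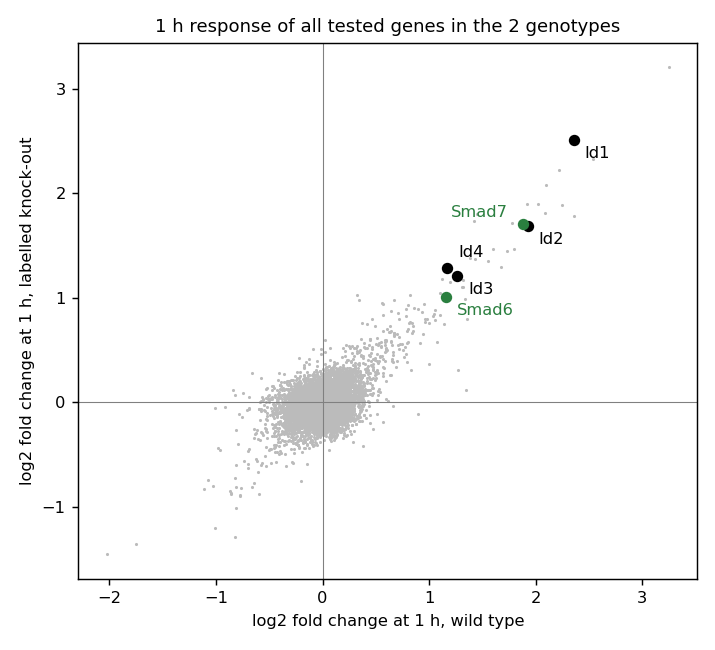
Log2 fold change at 1 h of TGF-β1 in wild type (horizontal axis) and in labelled knock-out (vertical axis) for the 13679 tested genes, 1 grey point per gene. The 4 Id genes (black), with Smad6 and Smad7 (green), lie in the upper right, with Id1 at 2.36 and 2.51.

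Id2 varied between embryos together with the macrophage and haematopoietic markers, a list that holds Ptprc, Cd68, Csf1r, Adgre1, Lyz2, Itgam, Tyrobp and Fcer1g. This relation was looked at after the values were seen. The list means in wild-type embryos 1, 2 and 3 were 10.60, 9.11 and 8.89 before treatment, 10.48, 9.09 and 8.85 at 1 h and 10.42, 8.36 and 9.18 at 10 h. The labelled knock-outs had 9.97, 8.21 and 8.63, then 9.75, 8.24 and 8.56, and then 9.81, 8.18 and 8.70. Embryo 1 was the highest in each group for the list and for Id2, and the order of the 3 embryos was the same for both in 6 of 6 groups. Over the 18 arrays the deviations of Id2 from its group means correlated with those of the list at 0.893, against 0.221 for Id1, 0.423 for Id3 and 0.046 for Id4. These arrays come from 6 embryos, and the same order was seen in 1, 2 and 0 groups for the other members. How many of all tested genes follow the list in this way was not counted. The relation is therefore not shown to be particular to Id2.

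None of the 8 markers passed between times in either genotype, with list medians of -0.08 and -0.07 at 1 h and -0.19 and -0.05 at 10 h in wild type and labelled knock-out, while Id2 was higher at 1 h by 1.40 to 2.21 in each embryo. In the comparison of the genotypes the list median was -0.58 before treatment, -0.63 at 1 h and -0.48 at 10 h, in the direction of the lower Id2 values, with 0 of 8 markers passed. The part of these cells in the level of Id2 was not tested, and in such mixed cultures fewer cells of a type and less RNA per cell cannot be told apart. In wild-type embryos 2 and 3 at 10 h, the arrays that do not go with their embryos, both the list and Id2 changed order relative to 1 h.

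**Figure D5:**
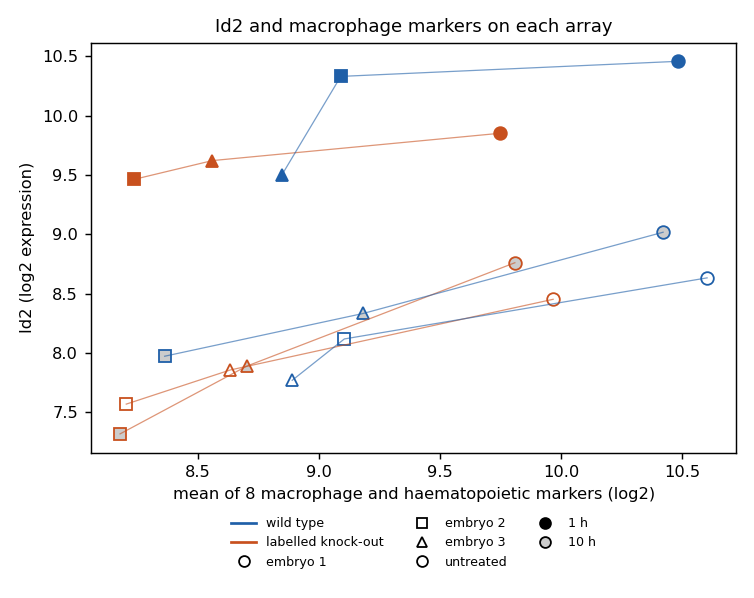
Log2 expression of Id2 (vertical axis) against the mean of 8 macrophage and haematopoietic markers (horizontal axis, log2) on each of the 18 arrays; colours mark the genotype, symbols the embryo, the fill the time, and lines join the 3 embryos of a group. Within each group Id2 is higher where the markers are higher, and the 1 h groups lie above the others at the same marker level.

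Among the partners of Id proteins, none of the 3 E protein genes, Tcf3, Tcf4 and Tcf12, passed at 1 h. At 10 h 2 of 3 fell in both genotypes. Tcf4, which encodes E2-2, fell by 0.76 ± 0.10 and 0.61 ± 0.10 (limma adjusted p = 2.65e-05 and 0.000179), and Tcf12, which encodes HEB, fell by 0.32 ± 0.09 and 0.40 ± 0.09 (0.0119 and 0.00276). Of the 33 tissue-specific basic helix-loop-helix genes listed 16 were tested. At 1 h only Scx, a tendon factor, rose, by 0.98 ± 0.21 in wild type (0.0469), and in the labelled knock-outs it was 0.80 ± 0.21 higher (0.196). At 10 h Scx rose in both, by 1.03 ± 0.21 and 0.99 ± 0.21, and Twist1, a mesenchymal factor, fell by 1.11 ± 0.14 and 1.42 ± 0.14. Counts at 10 h were 3 higher and 1 lower in wild type and 1 and 1 in the labelled knock-outs, of 16 tested, against 14.9% up and 18.8% down of all tested genes in wild type and 13.9% and 20.7% in the labelled knock-outs.

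The Hes, Hey and Bhlhe genes encode DNA-binding helix-loop-helix repressors, and 9 of 12 listed were tested. At 1 h 2 of 9 rose in each genotype, where 0.504% of all tested genes passed upwards in wild type and 0.417% in the labelled knock-outs. Bhlhe40 rose by 2.02 ± 0.29 and 1.90 ± 0.29 and the Notch target Hes1 rose by 1.45 ± 0.19 and 1.81 ± 0.19 (limma adjusted p from 6.46e-05 to 0.00395). Both were still raised at 10 h, as was Id1 among the Id genes, with Bhlhe40 at 2.06 ± 0.29 and 2.19 ± 0.29 and Hes1 at 1.00 ± 0.19 and 0.96 ± 0.19 above untreated cells. Hey1 and Heyl passed at 10 h but not at 1 h, Hey1 at 2.07 ± 0.21 and 1.30 ± 0.21 and Heyl at 2.57 ± 0.33 and 1.85 ± 0.33, and Hes6 fell by 0.52 ± 0.13 and 0.75 ± 0.13. At 10 h 5 of 9 rose and 1 fell in wild type, and 4 rose and 1 fell in the labelled knock-outs. Of all tested genes 14.9% rose and 18.8% fell in wild type, and 13.9% and 20.7% in the labelled knock-outs.

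Of the pathway that leads to the Id genes, none of 17 receptor and SMAD genes and none of 9 tested BMP ligand genes passed at 1 h. Of 10 tested genes for SMAD-induced feedback and BMP targets 4 rose in each genotype, beside 0.504% and 0.417% of all tested genes. The list median was 0.55 and 0.53 against -0.01 and -0.01 over all tested genes. Smad7, an inhibitory SMAD, rose by 1.88 ± 0.10 and 1.71 ± 0.10, and Klf10, a TGF-β-inducible repressor, by 2.09 ± 0.14 and 1.81 ± 0.14. Skil, a co-repressor of SMADs, rose by 1.16 ± 0.14 and 1.03 ± 0.14, and Smad6, the inhibitory SMAD of the BMP branch, by 1.16 ± 0.15 and 1.01 ± 0.15 (limma adjusted p from 6.54e-08 to 0.00264 for the 4 genes). At 10 h Smad7, Klf10 and Skil remained raised, by 0.92 to 1.28. Smad6 did not, at -0.26 ± 0.15 in wild type (0.188) and -0.55 ± 0.15 in the labelled knock-outs (0.00873).

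At 10 h 5 of these 10 rose and 1 fell in wild type, and 6 rose and 3 fell in the labelled knock-outs. Among them Smurf1 and Smurf2, ubiquitin ligases of the pathway, rose by 1.27 ± 0.11 and 1.33 ± 0.11 and by 0.83 ± 0.11 and 0.85 ± 0.11. Of the 17 receptors and SMADs 3 rose and 4 fell in wild type and 4 and 4 in the labelled knock-outs, near the shares of all tested genes at 10 h (14.9% up and 18.8% down in wild type, 13.9% and 20.7% in the labelled knock-outs). Tgfbr3, the co-receptor betaglycan, fell by 2.86 ± 0.32 and 2.77 ± 0.32, Smad3 by 0.88 ± 0.09 and 1.06 ± 0.09, and Acvr2a by 0.81 ± 0.11 and 0.79 ± 0.11. Acvr1, a type I receptor for BMPs that acts through SMAD1 and SMAD5, rose by 0.73 ± 0.12 and 0.84 ± 0.12. Of the BMP ligands 0 of 9 passed in wild type and 1 in the labelled knock-outs, Bmp5 at 0.87 ± 0.26 (limma adjusted p = 0.016).

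In the other 3 lists no member passed at 1 h, where 0.504% and 0.417% of all tested genes were called higher. At 10 h, of 8 tested genes for other Id-binding proteins 2 rose and 3 fell in wild type and 2 rose and 2 fell in the labelled knock-outs. Rb1, the gene of the retinoblastoma protein, fell by 0.45 ± 0.12 in wild type (limma adjusted p = 0.0115). In the labelled knock-outs it was 0.25 ± 0.12 lower, which did not pass (0.143). Its relative Rbl2 fell by 0.94 ± 0.21 and 0.90 ± 0.21, and Rbl1 by 0.53 ± 0.19 and 0.61 ± 0.19 (0.0436 and 0.0197 for Rbl1). Elk3 and Elk4, ternary complex factors, rose by 0.36 to 0.64. Of 5 tested regulators of Id genes or proteins, 1 rose in wild type and 2 in the labelled knock-outs. Egr1, an early growth response factor, rose at 10 h by 1.03 ± 0.26 and 1.21 ± 0.26, and Atf3, known as a repressor of Id1 in human epithelial cells, rose in the labelled knock-outs by 0.85 ± 0.26 (limma adjusted p = 0.017). Of 8 cell cycle and matrix genes on which Id or E proteins act, 1 rose and 2 fell in wild type and 1 rose and 1 fell in the labelled knock-outs. The cyclin-dependent kinase inhibitor gene Cdkn1b fell in both, by 0.74 ± 0.21 and 1.07 ± 0.21. These small counts are to be read against the same shares of all tested genes at 10 h. Cdkn1a was 0.05 ± 0.09 and 0.14 ± 0.09 from untreated cells at 1 h (1.00 each).

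The genes whose log2 values followed each member most closely over the 18 arrays were ranked by Pearson's r, as a description of arrays that share embryos and treatments. For Id1 they were Snai1, at r = 0.936, Mideas, Rasl11b, Klf10 and Cdk5r1, at 0.918. For Id2 they were Mideas, at 0.870, Rassf5, Id3, Id1 and Gse1, at 0.830. For Id3 they were Ppp1r3d, at 0.920, Per2, Smad6, Zbtb2 and Tgif2, at 0.873, and for Id4 they were Smad6, at 0.966, Bcor, Ppp1r3d, Rin2 and Dact1, at 0.909. Smad6 and Ppp1r3d, which encodes a regulatory subunit of protein phosphatase 1, were shared by Id3 and Id4. Between members r ran from 0.721 for Id2 with Id4 to 0.859 for Id2 with Id3. With the group means taken out, it was 0.581 for Id1 with Id3, 0.514 for Id2 with Id3 and 0.338 for Id1 with Id2, and those of Id4 with the others lay between -0.001 and 0.163.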

How the data were processed

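The authors deposited 1 log2 value per Affymetrix probe set and array, from RMA per the submitters' processing notes, which name no version. That the scale is log2 was read from the range of 2.49 to 14.47. The authors' normalization was kept. Of 45101 probe sets 34958 carried a single symbol in the platform annotation. Each gene was represented by the brightest of these, and those that exceeded their array's 40th percentile in 3 or more arrays were tested (13679 of 18194).

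Group means were fitted over all 18 arrays with limma 3.58.1 in R 4.3.3, with 12 residual degrees of freedom, empirical Bayes moderation and two-sided p values adjusted by Benjamini-Hochberg over all tested genes, at a threshold of 0.05. Both responses of a genotype use its untreated arrays, and the falls from 1 h to 10 h share the 1 h arrays. Alternatives changed the filter, the centring of arrays, the arrays in the fit, the moderation, the probe set rule, the replicate block and the embryos included. The same number within a genotype is the same embryo per the labels, so the embryo was also used as a block. The test was checked on simulated data.

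The genes named are all members and the 5 tested genes most correlated with each. Per list and comparison, names were taken from those that passed with the 4 lowest adjusted p values, and not all of these are named. Cdkn1a, Tcf3 and the marker genes were named outside this rule, after their values were seen. So were Hes1 in the labelled knock-outs, Rbl1 in wild type and Klf10, all at 10 h. The members and lists were chosen with earlier results of these data known. Promoters and their motifs were read with Python 3.11.15 from RefSeq's table.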

Additional observations from a re-analysis of the deposited data

Results flagged for a closer look

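The 1 h and the 10 h response differed in every Id gene, by the test of 10 h against 1 h, which is the difference between the responses at these times because they share the untreated arrays. In wild type it was -1.59 for Id1, -1.66 for Id2, -1.68 for Id3 and -2.07 for Id4 on the log2 scale (limma adjusted p = 4.4e-05, 0.00244, 0.00026 and 1.91e-05), lower in 3 of 3 embryos each. In the labelled knock-outs it was -1.94, -1.66, -1.85 and -2.09 (6.86e-06, 0.00236, 0.000109 and 1.65e-05), lower in 3 of 3 embryos each. With 3 arrays a group, single arrays were not tested as outliers.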

How the results depend on the processing

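Over the alternatives, Id1 at 1 h and Id1, Id3 and Id4 from 1 h to 10 h kept direction and call in both genotypes, as did Id2 from 1 h to 10 h in the labelled knock-outs. With the replicate block of embryos, fixed, random or (added after seeing the data) fixed with untreated and 1 h arrays only, 4 of 4 genes and 8 of 8 probe sets rose at 1 h in both genotypes, against 2 genes in each and 5 and 4 probe sets without it; at 10 h in the labelled knock-outs the fixed block gave 5 probe sets and 3 genes. The block moved no other count of Id genes past 1.5 times. With the filter at the 60th percentile 4 genes passed at 1 h in wild type. With only the arrays of the groups compared, 2 probe sets passed at 1 h in each genotype and 0 genes at 10 h in the labelled knock-outs, where 1 passed with no filter. Without the wild-type 10 h arrays of embryos 2 and 3, also added after seeing the data, 0 genes and 1 probe set passed at 10 h, and 5 probe sets from 1 h to 10 h. Over all tested genes the 1 h count was 80 in wild type and 67 in the labelled knock-outs, 47 and 39 with only the groups compared, and 375 and 214 with the block on untreated and 1 h arrays. At 10 h in wild type it was 4614, and 2516 without the 2 arrays. Without 1 embryo at a time, the gene counts at 1 h ranged from 1 to 3 in wild type and from 1 to 1 in the labelled knock-outs, and at 10 h from 0 to 2 and from 1 to 1. Probe set counts ranged from 1 to 5 and from 1 to 3 at 1 h, from 1 to 4 and from 2 to 3 at 10 h, and from 5 to 8 and from 6 to 8 between 1 h and 10 h. With only the arrays of the groups compared, the 1 h rises of Id2 in wild type and Id4 in the labelled knock-outs and the 10 h changes of Id1 and Id4 in the labelled knock-outs also missed the threshold (limma adjusted p = 0.0716, 0.294, 0.123 and 0.0824). The direction turned in values that had not passed. With arrays centred, the genotype difference of Id4 before treatment was -0.014. With the mean of a gene's probe sets, the differences between genotypes of Id4 were -0.066 in the 1 h response, -0.058 in the 10 h response and 0.0083 in the change from 1 h to 10 h. Without the wild-type 10 h arrays of embryos 2 and 3, the genotype difference of Id4 at 10 h was -0.0064, that in its 10 h response -0.0089, and that of Id2 in the change from 1 h to 10 h -0.58. Leaving out 1 embryo at a time, the 10 h change of Id2 in the labelled knock-outs ranged from -0.11 to 0.17. The genotype difference before treatment ranged from -0.13 to 0.30 for Id1, -0.46 to 0.015 for Id2, -0.36 to 0.081 for Id3 and -0.23 to 0.31 for Id4. For Id4 it ranged from -0.053 to 0.32 at 1 h and -0.10 to 0.28 at 10 h, and for Id1 at 10 h from -0.21 to 0.11. The difference in the 1 h response ranged from -0.00085 to 0.33 for Id1, -0.22 to 0.18 for Id3 and -0.089 to 0.33 for Id4. In the 10 h response it ranged from -0.41 to 0.0060 for Id1 and -0.20 to 0.51 for Id4, and in the change from 1 h to 10 h from -0.35 to 0.24 for Id2, -0.45 to 0.11 for Id3 and -0.21 to 0.23 for Id4. Across the genotypes embryos share only a number, with correlations of deviations from -0.198 to 0.541, and with that number as a replicate block 0, 1 and 6 of all tested genes and 0 Id genes passed between genotypes before treatment, at 1 h and at 10 h. The cause of these changes was not tested. With 3 embryos per group, the precision is limited by the number of arrays.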
